A study of Mus musculus with 5 samples.

Results

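The sites described here are the widest distal DNaseI hypersensitive sites (DHSs) of mesoderm (MES), that is, stretches of open chromatin away from known promoters that extend over an unusually long piece of DNA. They were taken from the MES list alone. A site was called distal if its middle lay over 2 kb from every transcription start site (TSS) of a curated RefSeq protein-coding mRNA, and it was kept if its width was at or above the 90th percentile of these distal sites, which was 1000 bp. This gave 1229 sites, called members below, of 10454 distal MES sites (11.8%, because of ties in width) and of 21949 MES sites in all. The members were thus chosen by their width in MES, which is given as a description. At the edge of the rule, 416 members were 1000 bp wide and 634 distal sites just outside it were 900 bp wide.

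DNaseI-seq had been carried out on 5 successive populations grown in vitro from mouse embryonic stem (ES) cells of strain 129, in which GFP reports expression of Brachyury (Bry), a gene of early mesoderm. MES cells were sorted as Bry.GFP+ and FLK1-, hemangioblasts (HB) as Bry.GFP+ and FLK1+, hemogenic endothelium (HE) as Tie2+, cKit+ and CD41-, hematopoietic progenitors (HP) as CD41+, and macrophages (MAC) as CD11b+. Each population is represented by 1 list of sites, the MAC label naming 2 replicates together, so there is no replicate error and no difference between populations could be tested. The lists hold positions only, and their depth is unknown from these values. All 5 derive from 1 reporter line in culture.

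DNase I cuts DNA where nucleosomes have been displaced, mostly at promoters, enhancers and insulators. Mesoderm forms when cells of the pluripotent epiblast pass through the primitive streak under Wnt, Nodal, BMP and FGF signals, which induce the T-box factors Brachyury and Eomes. Enhancers of such genes often lie far from the promoter, and neighbouring open elements may be called as a single wide stretch. In this MES list a site was found no more than 1 kb from an annotated TSS of T, Eomes, Mixl1, Mesp1 and Pdgfra, all genes of early mesoderm, and of the pluripotency genes Pou5f1, Nanog and Sox2. No site lay there for the macrophage genes Itgam, Csf1r and Adgre1, for the endothelial genes Cdh5, Tek and Pecam1, or for the blood genes Tal1, Itga2b and Gata1. Sites were listed at Kdr, which encodes FLK1, and at Runx1 and Etv2. Of the endoderm genes Foxa2 had a site and Sox17 and Afp had none, and of the neural genes Sox1 had a site and Pax6 had none.

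The central 300 bases of 8 members show the range of sequence among them (mm10, plus strand, reference strain C57BL/6J, from the RefSeq assembly). Capitals mark matches, on either strand, to short consensus sequences. For the TEAD factors of the Hippo pathway these were CATTCCA and the closely related form CATTCCT. For the T-box factors AGGTGTGA was searched, for the GATA family of factors AGATAA, for the SOX family of factors AACAANG, and for the POU factors the octamers ATGCAAAT and ATGCTAAT. The letters of TCF/LEF, the nuclear factors of Wnt signalling, were ATCAAAG, those of the RUNX factors of blood and bone TGTGGTT and the closely related form TGTGGTC, and those of the KLF and SP zinc finger factors GGGCGG and in addition GGGTGTGG. CTCF was searched by its consensus, and the B box of tRNA genes as GTTCNANTC. A base may belong to more than 1 match, and a match describes letters only. The first member shown is the widest near a streak transcription factor gene, at chr9:118487451-118487750 downstream of Eomes, and it held 1 octamer and 1 TEAD match.
Eomes: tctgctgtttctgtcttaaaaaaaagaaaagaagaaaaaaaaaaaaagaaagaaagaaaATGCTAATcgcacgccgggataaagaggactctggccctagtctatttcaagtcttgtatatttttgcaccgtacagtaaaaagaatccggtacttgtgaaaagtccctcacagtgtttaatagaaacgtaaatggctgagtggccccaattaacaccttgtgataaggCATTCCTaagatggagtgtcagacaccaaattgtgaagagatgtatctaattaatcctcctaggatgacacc
The widest near a streak signalling gene lies at chr7:98815581-98815880, upstream of Wnt11, but its middle is 16 bp from the start of a tRNA gene, n-TPagg7, whose B box is among the capitals.
Wnt11: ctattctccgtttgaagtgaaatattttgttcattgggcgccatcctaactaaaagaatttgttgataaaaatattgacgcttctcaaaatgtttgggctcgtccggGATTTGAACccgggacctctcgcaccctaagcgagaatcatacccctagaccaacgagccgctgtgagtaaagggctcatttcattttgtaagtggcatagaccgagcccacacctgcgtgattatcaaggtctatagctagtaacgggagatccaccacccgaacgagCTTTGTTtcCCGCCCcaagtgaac
The widest near a pluripotency gene lies at chr9:114584401-114584700, upstream of Trim71, and held octamer, SOX, TEAD and RUNX matches.
Trim71: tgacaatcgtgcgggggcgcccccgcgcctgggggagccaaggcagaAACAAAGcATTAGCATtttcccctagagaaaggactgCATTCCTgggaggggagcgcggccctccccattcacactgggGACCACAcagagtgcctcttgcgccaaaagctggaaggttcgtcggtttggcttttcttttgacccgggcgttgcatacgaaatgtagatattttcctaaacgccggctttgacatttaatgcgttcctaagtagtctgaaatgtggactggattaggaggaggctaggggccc
The widest member of all is at chr14:19417513-19417812, with Gm2237 as nearest gene, and it is shown as the widest of the members that all 4 other lists overlap.
Gm2237: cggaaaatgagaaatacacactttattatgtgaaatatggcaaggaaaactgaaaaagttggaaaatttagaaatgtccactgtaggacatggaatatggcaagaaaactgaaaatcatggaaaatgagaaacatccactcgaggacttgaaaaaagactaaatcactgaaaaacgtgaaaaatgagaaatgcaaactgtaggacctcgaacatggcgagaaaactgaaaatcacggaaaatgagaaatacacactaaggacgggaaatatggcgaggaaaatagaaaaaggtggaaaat
The remaining 4 were chosen after their values were seen, for their genes: the member at chr17:8408942-8409241, upstream of T and in an intron of T2, the member at chr11:103808967-103809266 in an intron of Wnt3, the member at chr10:24590863-24591162 upstream of Ccn2, and the member at chr16:93006632-93006931 upstream of Runx1.
T: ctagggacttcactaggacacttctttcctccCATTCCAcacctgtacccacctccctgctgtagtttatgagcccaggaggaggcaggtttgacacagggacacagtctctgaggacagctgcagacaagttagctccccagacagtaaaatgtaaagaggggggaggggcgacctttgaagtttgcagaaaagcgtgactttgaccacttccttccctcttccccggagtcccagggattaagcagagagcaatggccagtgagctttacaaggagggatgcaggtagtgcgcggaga
Wnt3: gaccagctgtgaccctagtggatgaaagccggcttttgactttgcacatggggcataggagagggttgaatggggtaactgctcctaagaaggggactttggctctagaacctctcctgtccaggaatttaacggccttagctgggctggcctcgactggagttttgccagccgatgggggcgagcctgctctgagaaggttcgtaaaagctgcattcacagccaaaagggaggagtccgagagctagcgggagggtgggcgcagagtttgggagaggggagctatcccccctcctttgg
Ccn2: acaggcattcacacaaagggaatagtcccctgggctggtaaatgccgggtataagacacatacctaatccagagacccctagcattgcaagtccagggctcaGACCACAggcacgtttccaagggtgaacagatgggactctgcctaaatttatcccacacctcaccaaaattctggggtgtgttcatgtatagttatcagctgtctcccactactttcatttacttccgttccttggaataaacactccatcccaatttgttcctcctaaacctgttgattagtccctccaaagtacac
Runx1: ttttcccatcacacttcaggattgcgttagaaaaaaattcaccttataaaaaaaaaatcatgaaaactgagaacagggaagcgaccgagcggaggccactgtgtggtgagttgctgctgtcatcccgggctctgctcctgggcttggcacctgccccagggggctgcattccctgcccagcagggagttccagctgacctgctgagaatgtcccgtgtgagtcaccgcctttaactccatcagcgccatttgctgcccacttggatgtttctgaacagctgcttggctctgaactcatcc
The members of Wnt3 and Runx1 held none of these consensus letters in the 300 bases shown, and that of T held 1 TEAD match.

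Members were 1000 to 3500 bp wide, with a median of 1100 bp, against a median of 500 bp for the other 9225 distal MES sites. Together they covered 1.45 Mb. Most were not far above the limit, since 523 were 1100 or 1200 bp wide and 290 were 1300 bp or wider. The 10 widest were a mixed group. The widest of all (3500 bp, chr14:19415913-19419412, 168 kb downstream of Gm2237) was 83.4% soft-masked repeat, and 37.2% of its 31-base words occurred more than once in the reference. The second (3000 bp, chr17:39843192-39846191, nearest gene Esp38) lay beside the ribosomal RNA pseudogene Rn18s-rs5 and was CpG-rich. The third, 2500 bp wide, lay near Ppp2r3d on chromosome 9 at the start of a long non-coding RNA. Each of these 3 had a single site of nearly the same width in all 4 other lists, between 2600 and 3600 bp. In contrast, the listed widths differed between lists at the members of Irs2, the insulin receptor substrate gene, and of Adgrl1, an adhesion receptor gene. The Irs2 member was 2200 bp wide in MES, and the sites over it measured 2300 bp in HB and 1700 bp in HE, then 600 bp in HP, with 1100 bp in MAC. The Adgrl1 member was 2100 bp wide, with 2100 bp in HB, 2000 bp in HE and no site in HP or MAC. The other 5 were 2 members near Cxxc5, which encodes a zinc finger regulator of Wnt signalling, and 1 each near Alkbh8, Ypel4 and Aloxe3, the last at the start of a tRNA gene.

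To determine how far the widest MES sites were shared with the later populations, each was compared with the 4 other lists, an overlap of 1 bp being enough. The wide sites were in large part not particular to MES. HB sites overlapped 1195 members (97.2%, 95% Wilson interval 96.2 to 98.0), against 66.6% of the other distal MES sites and 70.2% of all distal MES sites. HE sites overlapped 1001 members (81.4%, 79.2 to 83.5), against 42.7% of the others and 47.3% of all. HP sites overlapped 782 (63.6%, 60.9 to 66.3), against 24.7% and 29.2%. MAC sites overlapped 670 (54.5%, 51.7 to 57.3), against 24.9% and 28.4%. All 4 lists overlapped 585 members (47.6%, 44.8 to 50.4), against 12.0% of the others and 16.2% of all, whereas no other list overlapped 21 members (1.71%, 1.12 to 2.60), against 23.5% and 21.0%. These intervals cover counting error only and treat sites as independent. A wider site has more bases that another site can meet, so the comparison was repeated with every site set to 500 bp around its middle and with the minimum overlap that the study used to merge windows. HB then met 94.2% of members, HE 70.8%, HP 59.1% and MAC 46.3%, against 65.1%, 38.1%, 24.1% and 23.7% of the others, so that the difference kept its direction in each list. All 4 lists then met 38.5% of members and 10.7% of the others, and the share in MES only was 3.91%, more than 1.5 times that by the first rule, against 25.1%.

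**Figure D1:**
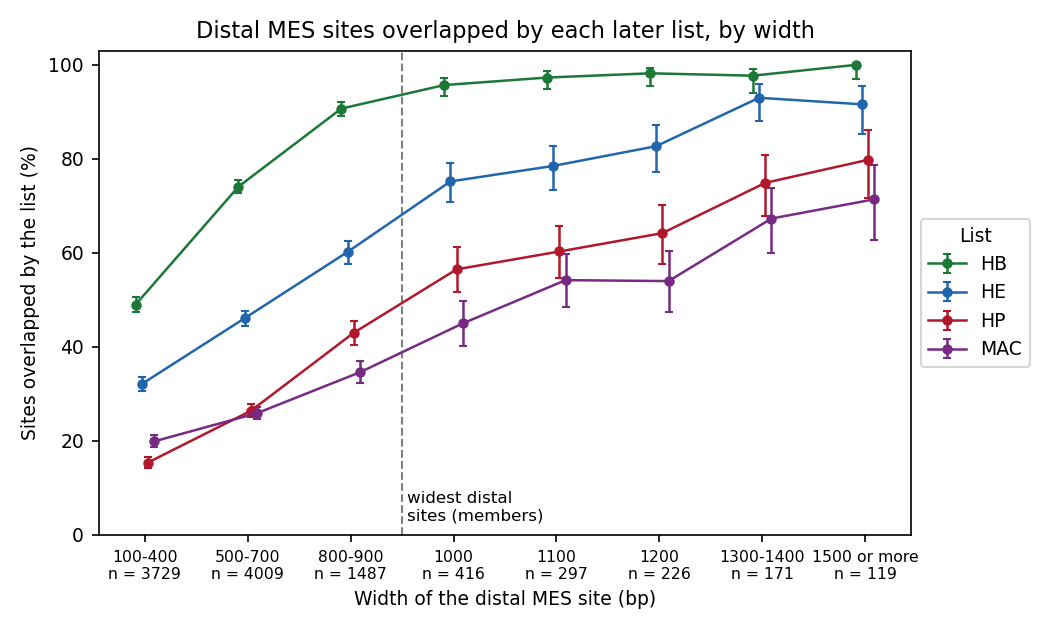
The share of distal MES sites (vertical axis, in percent) that a site of HB, HE, HP or MAC overlaps is drawn by the width of the MES site (horizontal axis, in bp). Points are shares with 95% Wilson intervals, lines join the classes, and members lie right of the dashed line. The HB share is 49.0% for sites of 100 to 400 bp and 95.7% at 1000 bp, while the MAC share goes from 19.9% to 71.4% at 1500 bp or more.

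The overlap was higher at greater widths, also among sites that were not members. At 800 to 900 bp, just outside it, HB sites overlapped 90.7%, HE sites 60.2%, HP sites 43.0% and MAC sites 34.6%. At 1000 bp the shares were 95.7%, 75.2%, 56.5% and 45.0%, and for HE the interval at 1000 bp (70.9 to 79.1) lay above that at 800 to 900 bp (57.7 to 62.6). Among the members of 1500 bp or more, HB sites met all, HE sites 91.6%, HP sites 79.8% and MAC sites 71.4%, and 66.4% were overlapped by all 4 lists, against 5.31% of sites of 100 to 400 bp. The increase was not even, since HE sites met 93.0% of members of 1300 to 1400 bp, and MAC sites met 54.2% at 1100 bp and 54.0% at 1200 bp.

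When the open lists of each member were read as a pattern, runs of neighbouring stages starting at MES were the most frequent. After the 585 members shared by all 5 lists came MES to HP with 173 members (14.1%, 12.2 to 16.1), MES to HE with 172 (14.0%, 12.2 to 16.0) and MES and HB alone with 166 (13.5%, 11.7 to 15.5). These patterns and the 21 members listed in MES only left 112 members in all other patterns, of which 61 lacked HP alone. Among the other distal sites the order differed, with 25.4% in MES and HB, 23.5% in MES only and 12.0% in all 5 lists. The lists are of unequal length, with 17734 sites in HP and 37456 in MAC, and these counts do not correct for it.

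**Figure D2:**
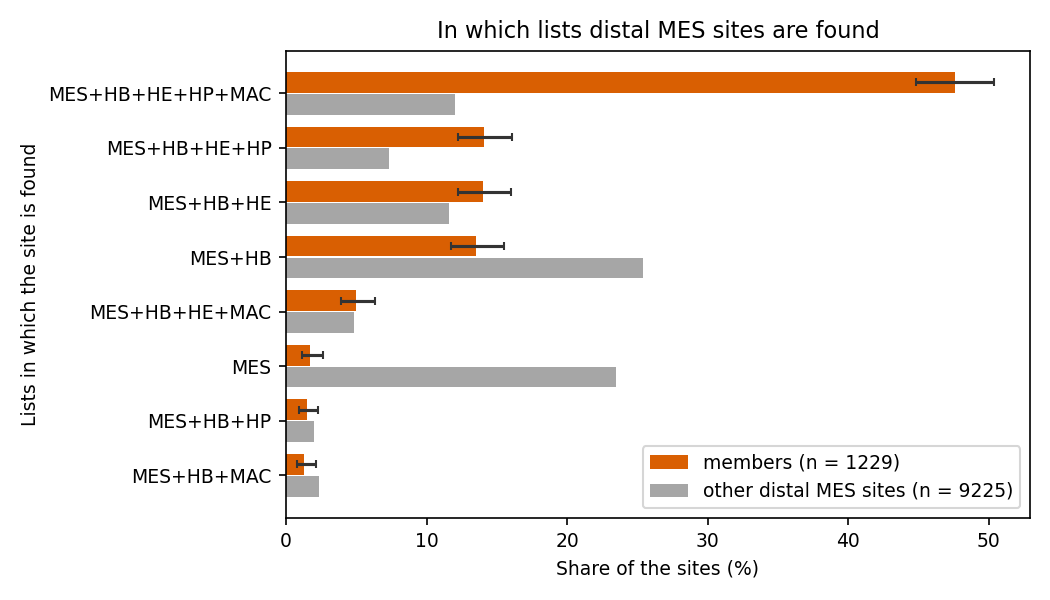
Bars give the share of sites (horizontal axis, in percent) with each of the 8 most frequent patterns of lists (vertical axis), for members in orange with 95% Wilson intervals and for other distal MES sites in grey. Members are found in all 5 lists in 47.6% of cases against 12.0%, and in MES only in 1.71% against 23.5%.

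The sites over members differed in width from list to list, each list meeting a different set of members. HE sites were the widest over members, with a median of 1500 bp and 76.3% (764 of 1001) wider than the MES site they overlapped. In HB the median was 1300 bp, and 65.3% were wider than in MES. In HP the median was 1100 bp with 24.3% wider, and in MAC 900 bp with 11.2% wider. Because members were chosen by a large width in MES, fewer wider sites elsewhere are in part set by the rule, and for the other distal sites 76.6% of HB sites were wider, 91.3% of HE sites, 52.1% of HP sites and 36.8% of MAC sites. HB sites covered a median of 99.3% of a member's bases, HE sites 100%, HP sites 86.5% and MAC sites 72.7%. The lists themselves also differ in width. The median over all sites was 800 bp in MES, 900 bp in HB and HP, 1200 bp in HE and 600 bp in MAC. HE was thus highest and MAC lowest, as over members. HB and HP shared a list median but differed over members, at 1300 and 1100 bp. The 90th percentile of distal width did differ between them, at 1200 bp in HB and 1100 bp in HP. Whether these elements narrowed, apart from such differences between the lists, was not tested. When the same rule was applied to every list, with thresholds of 1200, 1500, 1100 and 900 bp, 821 members (66.8%) overlapped a widest distal site of HB, which was 51.6% of the 1590 in that list. The counts were 556 for HE (45.2% of members, 19.0% of the HE sites), 395 for HP (32.1% and 47.8%) and 373 for MAC (30.3% and 10.5%). Of the other distal MES sites 6.62%, 7.70%, 1.97% and 3.79% overlapped a widest site of these lists in the order above. A total of 232 members (18.9%) were among the widest of all 5 lists and 283 (23.0%) were among the widest of MES alone.

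With respect to genes, 806 members (65.6%) lay between genes, 343 (27.9%) in introns, 54 (4.39%) in coding exons and 26 (2.12%) in UTRs. Introns were less frequent than among the other distal sites (37.1%). The median distance to the nearest protein-coding TSS was 19.7 kb, against 21.9 kb, and 158 members (12.9%) lay over 100 kb away. However, distance to a protein-coding TSS did not remove all promoters. Within 2 kb of the start of some other annotated transcript lay 367 members (29.9%, 27.4 to 32.5), against 13.7% of the others. These were starts of long non-coding RNAs at 199 members, of predicted mRNAs at 115, of tRNA genes at 54, of other transcripts at 29, of other small RNAs at 24 and of microRNAs at 17, a member being counted for each kind it met. Examples among genes of the lists below were the member of Jarid2, a Polycomb cofactor, 156 bp from a predicted start within that gene, and that of Lin28b, an RNA-binding protein of early development, 49 bp from a predicted start. For the 862 members with no annotated start within 2 kb, HB sites met 96.9%, HE sites 77.3%, HP sites 56.1% and MAC sites 46.8%. The corresponding shares of the other distal sites were 64.9%, 40.3%, 22.9% and 23.6%.

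A group of members lay at tRNA genes. RNA polymerase III transcribes them from promoter elements inside the gene, among them the B box, to which the factor TFIIIC binds. A tRNA gene start lay within 1 kb of 54 members (4.39%, 3.38 to 5.69), against 51 of the other distal sites and 1.00% of all distal MES sites. The tRNA members had a median width of 1300 bp, and 27 of them (50%, 37.1 to 62.9) held the B box letters in their central 500 bp, against 3.15% of the other members. A longer consensus of the same box, also taken after values were seen, was held by 32 of the 54 (59.3%, 46.0 to 71.3) and by 1.70% of the other members. Of the other distal sites at a tRNA gene, 41.2% held the shorter and 64.7% the longer form, so whether members or these sites held the box more often depended on the letters searched. HB and HE sites overlapped all 54, HP sites 53 and MAC sites 46, and 45 (83.3%) were found in all 5 lists. For the other members this last share was 46.0%, and for the other distal sites at a tRNA gene it was 49.0%. The Wnt11 member was one of this group and its HB site was 1700 bp wide, its HE site 2100 bp, its HP site 1500 bp and its MAC site 1300 bp.

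CpG-rich members were also widely shared. The term is used for sites whose central 500 bp reached a GC content of 50% and an observed to expected CpG ratio of 0.6, as CpG island promoters do. This held for 363 members (29.5%, 27.1 to 32.1) and for 8.91% of the other distal sites. When the starts of all annotated transcripts defined distal sites, the share of members was 18.8%. Of the CpG-rich members 186 (51.2%) lay within 2 kb of an annotated start, and 272 (74.9%) were found in all 5 lists. For the CpG-rich sites among the others these shares were 35.6% and 29.7%. Among the 866 members that were not CpG-rich, 313 (36.1%) were found in all 5 lists, against 10.2% of the other distal sites that were not CpG-rich. The CpG-rich share differed by pattern. It was 4.82% for MES and HB, 16.3% for MES to HE, 21.4% for MES to HP and 46.5% for all 5 lists. Distance moved with it, the median being 49.1 kb from a protein-coding TSS for members of MES and HB and 15.8 kb for those of all 5 lists.

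Few members were repeated sequence when words repeated in the reference were counted. In 11 (0.895%) at least 50% of the 31-base words occurred more than once in the reference, against 0.347% of the other distal sites. These were all 4 members with Alkbh8 as nearest gene, which lie within chr9:3018201-3036700 299 to 316 kb from it, 2 of Lrrc4c on chromosome 2, 2 of Mid1 on chromosome X, and 1 each of Tcp10c, Pex2 and Gm32856. Of these 11, 9 were found in all 5 lists. Without them the shares of members overlapped by each list, by all 4 and by none changed by less than their intervals. The widest member, at 37.2%, and the member beside Rn18s-rs5, at 0.673%, were not among the 11. Sequence with more copies in the cells than in the reference is not seen by this count. At least 50% of the bases were soft-masked repeat in 21 members (1.71%), against 2.04% of the other distal sites.

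The 1229 members had 1054 protein-coding genes as nearest gene, which is 5.02% of the 21000 genes annotated, while 28.5% had at least 1 distal MES site of any width. Of these genes, 917 had 1 member, 111 had 2, 16 had 3, 8 had 4 and 2 had 5. Gene lists of the streak, of its signals and of pluripotency had members more often than genes in general. A member lay nearest to 10 of 30 streak and mesoderm factor genes (33.3%), to 9 of 34 streak signalling genes (26.5%) and to 9 of 24 pluripotency genes (37.5%). The same was so for 4 of 12 Hippo and TEAD genes and 3 of 10 neural genes. The other lists had fewer, with 2 of 12 cardiac mesoderm genes (16.7%), 2 of 20 endothelial genes, 2 of 20 macrophage genes, 1 of 24 blood transcription factor genes and 0 of 10 endoderm genes. With distance taken to the gene body, 4 of the 20 endothelial genes had a member. However, genes of the first 3 lists had many distal MES sites of any width, and 83.3%, 85.3% and 87.5% of them had at least 1. Of the distal MES sites nearest to streak and mesoderm factor genes, 16 of 86 were members (18.6%, 11.8 to 28.1). For streak signalling genes this was 9 of 82 (11.0%, 5.88 to 19.6) and for pluripotency genes 10 of 61 (16.4%, 9.16 to 27.6), so that each interval included or bordered the 11.8% found over all genes. For neural genes it was 5 of 24 (20.8%, 9.24 to 40.5), and for Hippo and TEAD genes 5 of 16 (31.2%, 14.2 to 55.6), whose interval lay above 11.8%. This last value rests on few sites, with 2 of the 5 members at Amotl2. It is 1 of 10 lists, all chosen with earlier results of these data known, and was not tested. The stretch of genome for which a gene was the nearest had a median of 90.5, 150 and 182 kb in these 3 lists and 49.0 kb over all genes, and its part in the result was not tested.

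**Figure D3:**
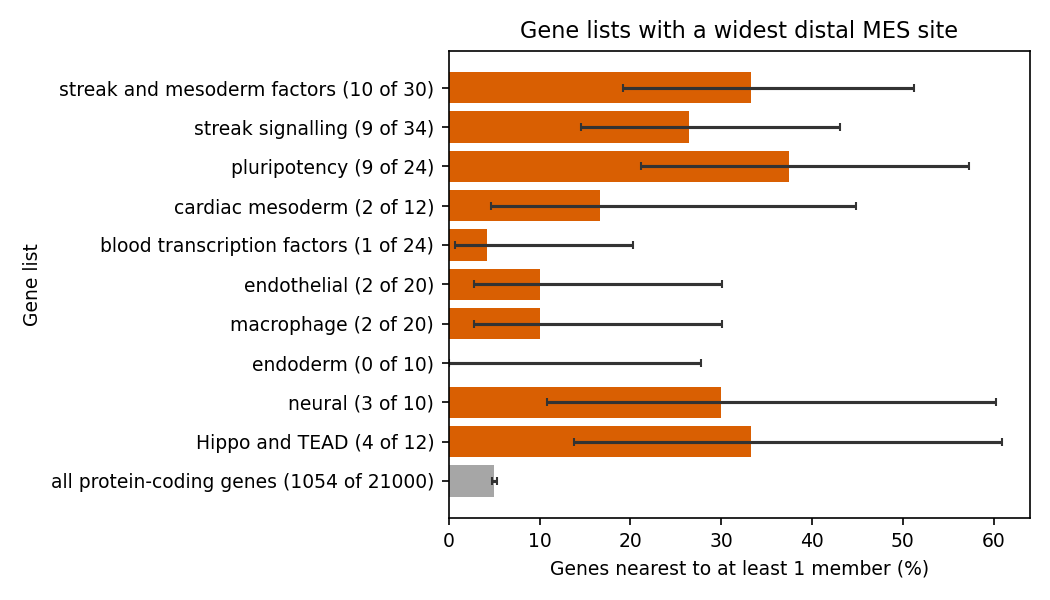
Bars give the share of the genes of each list that are nearest to at least 1 member (horizontal axis, in percent), with 95% Wilson intervals and with counts beside the list names on the vertical axis. The streak, signalling and pluripotency lists reach 33.3%, 26.5% and 37.5%, while the grey bar of all protein-coding genes is at 5.02%.

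The 35 members of the streak, signalling and pluripotency lists were less often found in the HP and MAC lists than members in general. HB sites met all 35 and HE sites 24 of them (68.6%, 52.0 to 81.4), whereas HP sites met 11 (31.4%, 18.6 to 48.0) and MAC sites 8 (22.9%, 12.1 to 39.0). Over all members the HP and MAC shares were 63.6% and 54.5%, both outside these intervals. The HB share over all members was 97.2%, and the HE share of 81.4% was at the edge of its interval. The pattern MES and HB alone held 11 of the 35 (31.4%, 18.6 to 48.0), against 13.5% of all members, and 7 were found in all 5 lists. The distal MES sites of these genes at any width also had lower shares in MAC and HP than the distal sites of all genes. In MAC they were 10.5%, 14.6% and 13.1% for the 3 lists against 28.4%, and in HP 20.9%, 15.9% and 16.4% against 29.2%.

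**Figure D4:**
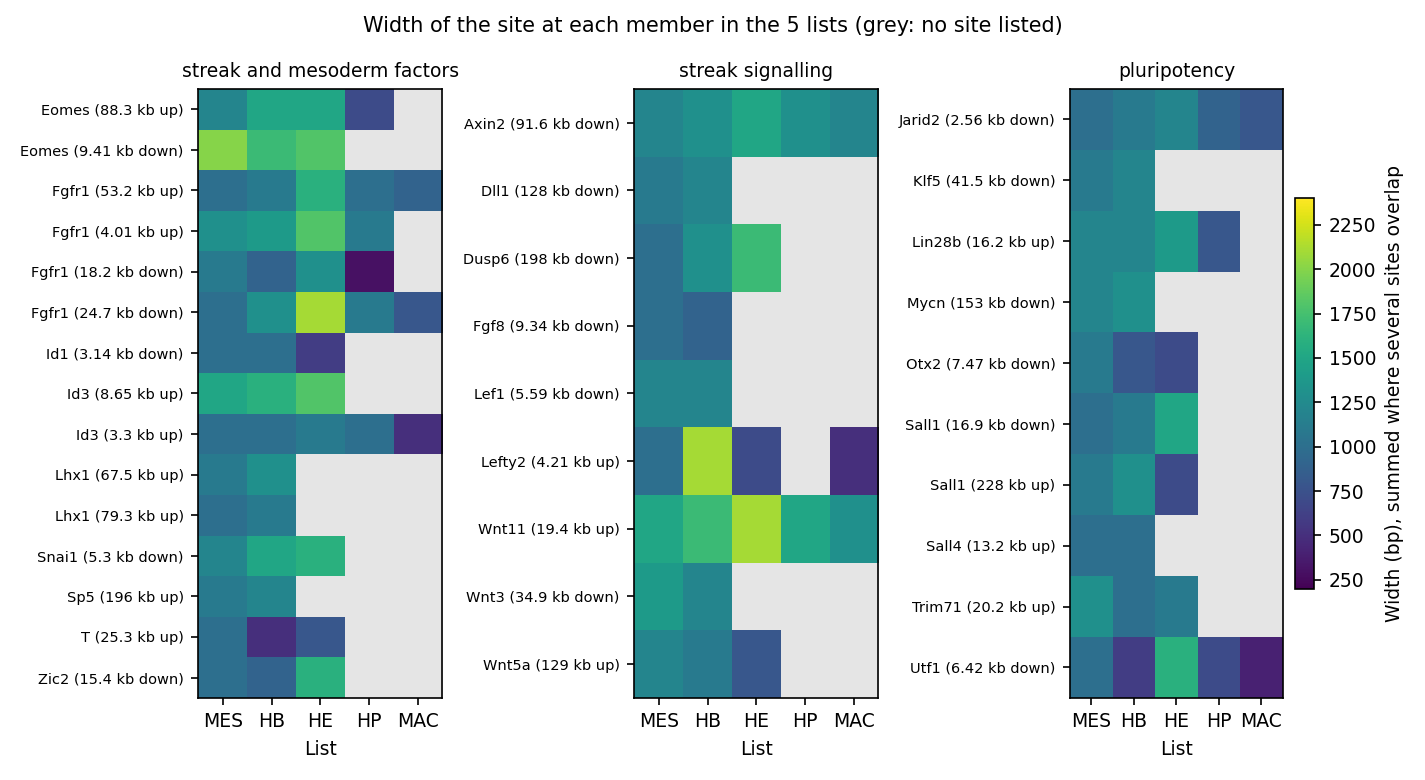
Each row is a member nearest to a gene of the named list (1 gene is left out), with its distance up or downstream of the TSS, and each column is a list. Colour gives the width in bp of the overlapping site, and grey means that no site was listed. Every row is filled in MES and HB, and most are grey in HP and MAC.

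Among transcription factor genes of the streak, T, which encodes Brachyury, had 1 member of 1000 bp, 25.3 kb upstream (chr17:8408592-8409591). The overlapping sites were 500 bp in HB and 800 bp in HE, and none was listed in HP or MAC. Eomes, a T-box factor of the streak, had 2 members. The member 9.41 kb downstream (chr9:118486601-118488600) was 2000 bp wide in MES, and it met a site of 1700 bp in HB and one of 1800 bp in HE. The HB site covered 80% of its bases but the HE site 15.0%, so the HE site lay mostly beside it. The Eomes member 88.3 kb upstream (chr9:118389301-118390500) was 1200 bp wide, and the sites over it were 1500 bp in both HB and HE and 700 bp in HP. Both members of Lhx1, which encodes a homeodomain factor of the streak and node, lay 67.5 and 79.3 kb upstream of it and were shared with HB only. Sp5, a Wnt target gene, had 1 member shared with HB only, 196 kb upstream in an intron of Myo3b. Snai1, which represses epithelial genes in cells that leave the streak, had 1 member 5.30 kb downstream, of 1200 bp in MES, with a site of 1500 bp in HB and 1600 bp in HE and none in the later lists. Id1 and Id3, BMP-responsive inhibitors of basic helix-loop-helix factors, had 3 members, of which the Id3 member 3.30 kb upstream was found in all 5 lists.

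Fgfr1, the FGF receptor needed for cells to leave the streak, had 4 members between 53.2 kb upstream and 24.7 kb downstream of its TSS, 2 of them in its introns. The member 24.7 kb downstream (chr8:25542995-25543994) was 1000 bp wide in MES, and the sites over it measured 1300 bp in HB and 2100 bp in HE, then 1100 bp in HP and 800 bp for MAC. The member 18.2 kb downstream (chr8:25536395-25537494) was 1100 bp wide, and it measured 900 bp in HB and 1300 bp in HE, with only 300 bp in HP and no MAC site. All 4 were found in HP, unlike most members of this list.

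Among the ligands of the streak, Wnt3, which is needed for the streak to form, had 1 member of 1400 bp in its intron, 34.9 kb downstream of the TSS (chr11:103808417-103809816). HB had a site of 1200 bp there, and the other lists had none. Fgf8 had a member of 1000 bp, 9.34 kb downstream of the TSS (chr19:45733040-45734039), with 900 bp in HB and no later site, and the member of the Notch ligand gene Dll1, 128 kb downstream, was also shared with HB only. Wnt5a, a non-canonical Wnt ligand gene, had a member 129 kb upstream in an intron of Erc2, which met 1100 bp in HB and 800 bp in HE. Lefty2, which encodes an antagonist of Nodal, had a member of 1000 bp, 4.21 kb upstream (chr1:180888403-180889402). The HB site over it was 2100 bp wide, the HE site 700 bp and the MAC site 500 bp. Inside the responding cell, Lef1, a transcription factor of the Wnt pathway, had a member of 1200 bp in its intron that was shared with HB only. Axin2, a feedback inhibitor of the same pathway, had a CpG-rich member 91.6 kb downstream of it, and this was 1200 to 1500 bp wide in all 5 lists. Dusp6, a phosphatase that restrains FGF signalling, had a member of 1000 bp far downstream, which was 1300 bp in HB and 1700 bp in HE.

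Of the pluripotency genes, Klf5, Sall4 and Mycn each had 1 member shared with HB only. Otx2, a homeobox gene of the epiblast, had a member of 1100 bp 7.47 kb downstream (chr14:48654713-48655812), with 800 bp in HB and 700 bp in HE. Trim71, a regulator of mRNAs in stem cells, had one of 1300 bp 20.2 kb upstream (chr9:114583901-114585200), with 1000 bp in HB and 1100 bp in HE. Sall1 had 2 members, both shared with HB and HE. The members of Jarid2 and Utf1 were found in all 5 lists and that of Lin28b in all but MAC, and all 3 lay at an annotated start, that of Utf1 283 bp from the start of the long non-coding RNA Gm16201 and the others as given above. No member was nearest to Pou5f1, Nanog or Sox2, which had a site within 1 kb of a TSS.

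Among genes of the later stages, the endothelial and macrophage lists had members at 2 of 20 genes each (10%). The blood transcription factor list had them at 1 of 24 (4.17%). Over all protein-coding genes the share was 5.02%, and these counts are too small to rank the lists against it. Of the distal sites of these lists, 10.5%, 8% and 4% were members, and each interval included 11.8%. Runx1, a factor needed to make blood from endothelium, had 1 member of 1000 bp, 181 kb upstream (chr16:93006282-93007281). HB had 1200 bp there, HE 600 bp, and HP and MAC no site. The endothelial gene Cdh5 had a member 228 kb upstream that was shared with HB and HE. Vwf had one in its intron that was found in all 5 lists. Fcgr1 and Irf8, genes of macrophages, had 1 each. That of Fcgr1, 18.8 kb upstream (chr3:96312186-96313385), was found in all 5 lists, whereas that of Irf8, 157 kb downstream (chr8:120894695-120895794), was found in HB and HE but not in MAC. Gata4 and Hand2, cardiac factors, had 1 each, both shared with HB and HE. In the Hippo and TEAD group, Ccn1 and Amotl2, known targets of TEAD factors, had members found in all lists but MAC, and Tead1 had 1 in its intron shared with HB and HE.

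The 21 members found in MES only were 1000 to 1400 bp wide, that is, at the lower end of the range. Among the widest, of 1400 bp, were those near Grifin and Trp73, and that of Trp73 was 251 bp from an annotated start in the gene. One of 1100 bp lay 4.43 kb upstream of Ccn2, a secreted matrix protein gene and TEAD target (chr10:24590463-24591562). Others lay near Inhbb, an activin subunit gene of the family that includes Nodal, near Prex1 and in a coding exon of Pcdh17. Of these 21, 2 were CpG-rich.

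The genes with most members were Gse1 and Zfp423 with 5 each, followed by Alkbh8, Ccl28, Ccr1, Chd9, Fgfr1, Nanos3, Opa1 and Prex1 with 4 each. Of these, Gse1, Zfp423, Chd9, Fgfr1 and Nanos3 lie on chromosome 8, which had the most members per length, as given below. All 4 members of Ccr1 (chr9:123924401-123937300) and 3 of 4 of Nanos3 were found in all 5 lists. These 3 of Nanos3 lay 8134 to 13434 bp from the start of the microRNA gene Mir181c or Mir23a. The other Nanos3 member, 1834 bp from Mir181c, was not found in MAC. Of the 5 members of Zfp423, which encodes a zinc finger cofactor of BMP signalling, 4 were in its introns, and none was found in MAC. Of the 5 of Gse1, 4 were found in all 5 lists. Members also lay close to each other, with 218 (17.7%) within 20 kb of another member, in 96 clusters. The largest held 5 members over 42.2 kb near Arrdc2, Il12rb1 and Mast3, also on chromosome 8.

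Chromosome 8 carried the most members, 150, or 116 per 100 Mb, against 49.4 per 100 Mb over all autosomes and 89.3 on chromosome 11, the next. This was also the chromosome with most distal MES sites per length, 760 per 100 Mb, and 15.3% of these were members, against 8.82% to 13.6% on the other autosomes. Distal sites per length were high there in all other lists too, from 627 in HP and 897 in HB to 1271 in HE and 1537 in MAC. The X chromosome had 12 members, or 7.02 per 100 Mb. The number of copies of each chromosome in these cells was not measured here.

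To describe which sequences the members shared, consensus letters were searched on both strands of the central 500 bp of every distal MES site. Compared with the other distal sites, members had more KLF/SP letters and fewer CTCF and E-box letters. KLF/SP, bound by factors of GC-rich promoters, was in 53.0% of members (50.2 to 55.7) and 32.3% of the others. The same letters read backwards, which are as GC-rich, gave 51.6% and 31.9%. However, GGGCGG read backwards is GGCGGG, and the stretch GGGCGGG holds both. The reversed letters therefore cannot separate this consensus from GC content. Among sites that were not CpG-rich the letters were in 39.5% and 28.2%, and in the central 200 bp the difference was 12.2 percentage points instead of 20.7. CTCF, the insulator factor, was in 8.46% of members (7.03 to 10.2) and 17.2% of the others (16.4 to 18.0), while its letters read backwards gave 1.14% and 0.726%. The CTCF share fell with width, from 20.1% at 100 to 400 bp to 4.83% at 1300 bp or more. Over the whole site, 20.7% of members and 17.7% of the others held a CTCF match, which is 200 and 354 matches per Mb. ZIC (CAGCAGG) was in 25.3% of members and 32.4% of the others, SOX in 19.8% and 25%, and GATA in 16.4% and 19.7%. Over the whole site, which is wider in members, the order was reversed. ZIC was then in 44.4% and 32.8%, SOX in 41.7% and 25.3%, and GATA in 34.0% and 20.2%. Matches per Mb were fewer in members, with 538, 504 and 410 against 783, 581 and 455. E-box letters, which basic helix-loop-helix factors bind, were searched as CAGCTG, in addition as CAGGTG and finally also as CATCTG. They were in 66.2% of members and 74.3% of the others, a difference of -8.15 percentage points that was 0.0771 with the letters read backwards. RUNX letters were in 13.0% and 17.0%, and those of AP1 (TGANTCA) in 12.0% and 15.9%. With letters read backwards the differences were much alike, at -3.12 points instead of -3.94 for RUNX, -2.42 instead of -3.92 for AP1 and -3.12 instead of -3.26 for GATA. In the central 200 bp they were smaller, at -2.92 points for RUNX, -1.93 for AP1 and -0.959 for GATA. ETS letters (CCGGAAGT) were in 2.60% of members (1.85 to 3.65) and 1.01% of the others (0.824 to 1.23), with a difference of 0.0835 points when read backwards, but among sites that were not CpG-rich they were in 0.924% (0.469 to 1.81) and 0.750%. Among sites that were not CpG-rich, GATA was in 20.7% of both. T-box letters were in 3.34% and 4.26%, TCF/LEF letters in 9.03% and 8.93%, octamer letters in 7.0% and 6.62%, and TEAD letters in 19.6% and 21.8%. Over the whole site these 4 were in 6.43%, 17.2%, 13.3% and 36.5% of members. For the others the shares were 4.38%, 9.26%, 6.54% and 22.6%. Matches per Mb were 62.3, 165, 130 and 407 in members against 86.5, 190, 137 and 507. In the central 200 bp TEAD letters were in 7.97% of members (6.59 to 9.62) and 10.9% of the others (10.3 to 11.5). Among sites that were not CpG-rich, TEAD letters were in 22.9% and 22.8% in the central 500 bp.

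**Figure D5:**
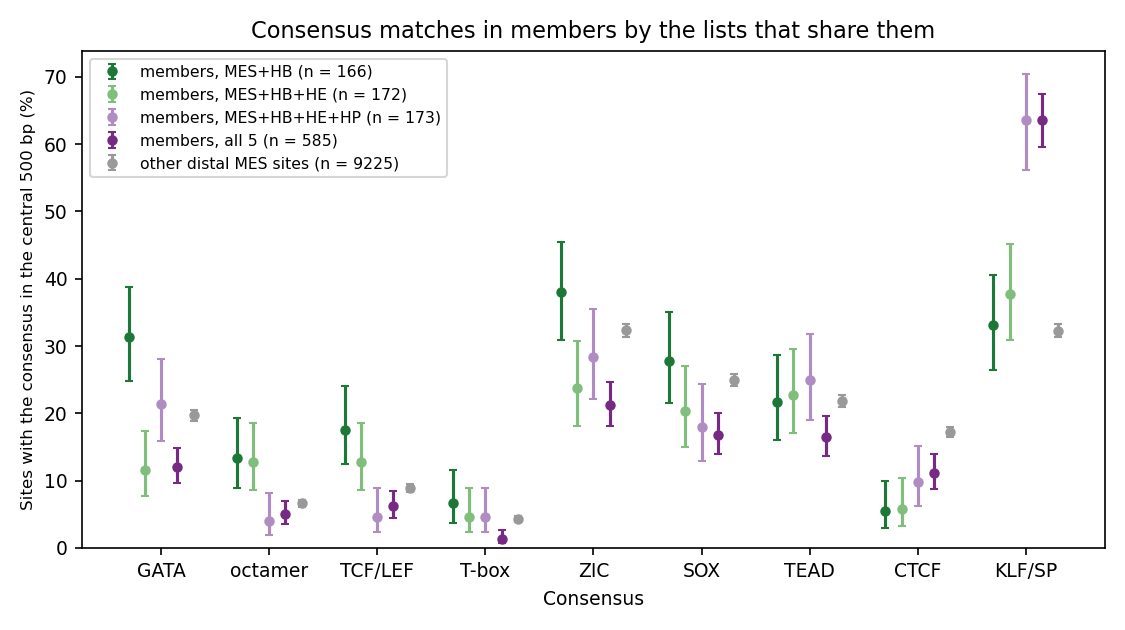
Points give the share of sites with each consensus in the central 500 bp (vertical axis, in percent), with 95% Wilson intervals, for members of 4 patterns of lists and for the other distal MES sites. GATA, octamer and TCF/LEF are highest in members of MES and HB, with 31.3%, 13.3% and 17.5%, and KLF/SP is highest, at 63.6%, in members of MES to HP and of all 5 lists.

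The members differed among themselves by the lists that shared them. GATA letters were in 31.3% of members of MES and HB alone (24.8 to 38.7), against 12.0% of those of all 5 lists (9.58 to 14.8), while the same letters backwards were in 13.9% and 10.8%. There was no steady order over the patterns, since GATA letters were in 11.6% of members of MES to HE and 21.4% of those of MES to HP. Octamer letters, bound by Oct4 and related POU factors, were in 13.3% (8.92 to 19.3) against 4.96% (3.47 to 7.03). TCF/LEF letters, bound by the factors that carry the Wnt signal, were in 17.5% (12.4 to 24.0) against 6.15% (4.48 to 8.40). In members of MES to HP octamer letters were in 4.05% and TCF/LEF letters in 4.62%, both below the values for all 5 lists. T-box letters were in 6.63% of members of MES and HB alone (3.74 to 11.5) against 1.37% (0.695 to 2.68). CpG content differs between these patterns as given above, and the order was the same among members that were not CpG-rich, with GATA in 32.3% and 16.3%, octamer in 13.9% and 5.75%, TCF/LEF in 17.7% and 7.99% and T-box in 5.70% and 1.60%. For T-box these intervals overlap (3.03 to 10.5 and 0.684 to 3.68). The narrower distal sites showed the same order. Among these, MES and HB sites had GATA in 25%, octamer in 8.38%, TCF/LEF in 14.3% and T-box in 6.75%, and sites of all 5 lists had 16.0%, 3.35%, 4.98% and 1.54%, so this was not a property of the widest sites alone. TEAD letters were in 21.7% of members of MES and HB and 16.4% of those of all 5 lists, with overlapping intervals. CTCF letters were in 5.42% of members of MES and HB (2.88 to 9.98) and 11.1% of those of all 5 lists (8.81 to 13.9), and these intervals also overlap.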

How the data were processed

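DNaseI-seq of 5 cell populations from a mouse ES cell differentiation series was analysed from 1 list of sites each. Per the labels and the methods of the study, the authors aligned reads to mm10 with Bowtie, used HOMER, and found sites with DFilter over 100 bp bins. The versions were not given in the sources used here. The deposited values are chromosome, start and end positions in bp, with no score or count, so the depth behind each site is unknown from these values, and the study's read totals were not used here. Starts were read as counted from 0. The members and all lists of genes and motifs were chosen with earlier results of these data known. Genes came from RefSeq GRCm38.p6 (25999 TSS positions, 21000 genes), and all 196 list entries matched. The widest members, the genes with most members and list genes with a member were named. Overlap meant at least 1 bp. With 1 list per stage no test was run, and shares carry 95% Wilson intervals (scipy 1.17.1, pandas 2.3.3, pysam 0.24.0). The 18 motifs were consensus letters, and the B box (in both its forms) and the printed members of T, Wnt3, Ccn2 and Runx1 were added after values were seen. Overlap, distance and motif code was tested on simulated data. A member of 1 streak gene and the sequence of 1 other member are counted but not reported here.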

Additional observations from a re-analysis of the deposited data

How the results depend on the processing

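Distal sites from the 80th percentile of width (800 bp) gave 2716 members, and from the 95th (1100 bp) 813. Their shares were 93.6% and 98.0% in HB, 69.8% and 84.6% in HE, 52.4% and 67.3% in HP, 43.6% and 59.4% in MAC, and 35.3% and 52.3% in all 4 other lists, and with the 80th percentile 4.16% were in MES only. When starts of all annotated transcripts defined distal sites, the same percentile (900 bp) gave 1365 members, a different set, with 95.6% overlapped in HB, 70.8% in HE, 51.9% in HP, 42.5% in MAC, 34.7% in all 4 and 3.15% in none. With at least 50% of the member covered, the shares were 95.5%, 78.0%, 56.3%, 40.8%, 37.1% and 2.77% in the same order, and with windows of 500 bp they were 94.2%, 70.8%, 59.1%, 46.3%, 38.5% and 3.91%. Counting only sites of the other lists that reached their list's median width gave 91.9%, 66.2%, 45.2%, 43.9%, 33.4% and 5.53%. Cutting each list to as many of its widest sites as HP has in all gave 95% in HB, 65.9% in HE, 42.6% in MAC, 36.8% in all 4 and 3.58% in none. Under each of these 4 overlap rules members were above the other distal MES sites in HB, HE, HP, MAC and all 4 lists, and below them for MES only. The alternatives of a 5 kb distance (1074 members), of the nearest edge over 2 kb (1200) and of leaving out 11 members of repeated sequence (1218, chosen after seeing the data) changed these shares by less than their intervals. The CpG-rich share of members was 18.8% with all transcript starts, and 4 endothelial genes had a member by gene body. The longer B box consensus, chosen after seeing the data, moved the share of members at no tRNA gene from 3.15% to 1.70%. Of the values for the number of members and their overlap shares under an alternative, 42 moved and 24 did not. Of the values for other results, 21 moved and 37 did not. Moved means by more than their interval or, for counts, over 1.5 times. No paired analysis was possible because each stage has 1 list. The lists hold no read counts, so a site that is not listed cannot be told from one that was too shallow to call, and any separate replicates were not analysed here.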
